A study of Mus musculus with 4 samples.

Results

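ATP-binding cassette (ABC) genes were described in cultured mouse erythroblasts after knockdown of the histone H4 lysine 20 methyltransferase Setd8 and after 6 h of maturation. The genes were chosen by name: a symbol in the deposited table that begins with Abc, a subfamily letter from A to G and a digit, with Abcb6 and Abcb10 left out. This gave 48 of the 23234 genes in the table, 16 in subfamily A, 8 in B, 10 in C, 4 in D, 1 in E, 3 in F and 6 in G. The family includes genes whose symbols do not follow this pattern, such as the peptide transporters Tap1 and Tap2, and these are not counted as members.

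The cells were ESREs, extensively self-renewing erythroblasts, which are early red cell precursors kept dividing outside the body. The libraries used here came from proliferating ESREs carrying a short hairpin RNA (shRNA) against Setd8, from control ESREs with a non-targeting shRNA held for 6 h in maturation medium, and from proliferating control ESREs with the non-targeting shRNA. Each group had 1 sample, and whether it was pooled from separate cultures is not stated in the labels. A sample of maturing Setd8 knockdown cells is also described and was not analysed here. Levels are FPKM, fragments normalised to transcript length and to library size, a scale on which genes of different length can be compared. A gene was called changed where the authors' deposited table gave an adjusted p (q) of at most 0.05, and no replicate check of any call exists. In these bulk libraries, fewer cells of a type and less RNA per cell cannot be told apart.

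ABC proteins bind and split ATP. Most use it to move a substrate across a membrane: subfamily A moves mainly lipids, B lipids, peptides and drugs, C organic anions and conjugates, D fatty acyl chains and cobalamin, and G sterols, urate and porphyrins. The E and F proteins have the ATP-binding parts without membrane spans and act on ribosomes and translation. In red cell precursors, members of the family are known for export of porphyrins and drugs.

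The knockdown was visible in its target. Setd8 stood at 9.28 FPKM in the knockdown, 25.9 FPKM in the maturing control and 25.1 FPKM in the proliferating control. All 10 erythroid markers were above 0 in every library, and their summed level was 792 FPKM in the knockdown, 3013 FPKM in the maturing control and 1900.1 FPKM in the proliferating control. Most of that sum came from 2 globin rows, and the other 8 markers summed to 247 FPKM in the knockdown, 303.5 FPKM in the maturing control and 259.6 FPKM in the proliferating control, with Gata1 and Rhag at a higher value in the knockdown than in the proliferating control. The 10 mast cell and basophil markers summed to 501 FPKM in the knockdown, 38.1 FPKM in the maturing control and 71.0 FPKM in the proliferating control, with none at 0 in any library. The 9 megakaryocyte markers summed to 42.5, 9.33 and 16.4 FPKM in the same order, with 3, 2 and 3 at 0. Macrophage markers (8) summed to between 1.23 and 1.51 FPKM, and granulocyte (6), lymphocyte (4), hepatocyte (3) and fibroblast or endothelial (4) markers to at most 0.0490 FPKM in any library. Judged by the FPKM worth of single fragments in scarce genes, sequencing was 1.44 times as deep in the knockdown and 1.54 times as deep in the maturing control as in the proliferating control.

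The promoters of the 3 members that were called in the knockdown and reached 1 FPKM in some library are shown first, as these genes are described at length below. Each runs from 250 bases before to 50 bases after the start annotated by RefSeq on GRCm38.p6, a later build than the mm9 positions of the deposited table. Capitals mark a match on either strand to GATAA (the core bound by GATA factors), to TGACNNNGC (the core of the antioxidant response element) or to GGGCGG (a GC box). The windows are chr19:43782058-43782357 on the plus strand for Abcc2, chr17:24351773-24352072 on the plus strand for Abca3 and chr17:24351010-24351309 on the minus strand for Abca17.
Abcc2: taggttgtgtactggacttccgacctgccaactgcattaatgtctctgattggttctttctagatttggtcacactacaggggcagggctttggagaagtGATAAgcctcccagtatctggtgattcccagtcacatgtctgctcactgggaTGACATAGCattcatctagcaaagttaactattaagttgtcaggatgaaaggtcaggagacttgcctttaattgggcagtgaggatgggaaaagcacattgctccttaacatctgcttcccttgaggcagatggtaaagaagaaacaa
Abca3: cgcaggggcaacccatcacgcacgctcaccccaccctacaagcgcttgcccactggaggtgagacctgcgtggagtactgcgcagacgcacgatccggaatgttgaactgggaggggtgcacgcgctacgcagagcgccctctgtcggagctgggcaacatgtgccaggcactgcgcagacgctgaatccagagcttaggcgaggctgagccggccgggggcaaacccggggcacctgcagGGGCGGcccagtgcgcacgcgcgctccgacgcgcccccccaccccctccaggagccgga
Abca17: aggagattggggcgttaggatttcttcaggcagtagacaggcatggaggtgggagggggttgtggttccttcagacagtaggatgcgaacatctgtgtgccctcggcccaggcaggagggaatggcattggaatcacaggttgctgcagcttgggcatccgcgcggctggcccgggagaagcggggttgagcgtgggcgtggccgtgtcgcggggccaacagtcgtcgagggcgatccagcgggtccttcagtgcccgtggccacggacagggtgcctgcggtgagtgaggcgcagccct
The Abcc2 window held 1 GATAA match at position -150 and 1 TGACNNNGC match at -98 from the start, which do not overlap, and no GC box. The Abca3 window held 1 GC box at -9 and neither of the other motifs, and the Abca17 window held none of the 3. Of the called members at lower levels with a window, Abca14, called lower, held 1 GATAA match at -194, and Abca5, called higher, held no GATAA match and 5 GC boxes. GATAA occurred in 25.4% of all 32851 RefSeq promoter windows, TGACNNNGC in 12.4% and GGGCGG in 35.7%. Among the 43 windows of the 36 members in that table the shares were 25.6%, 16.3% and 46.5%. The G and C content was 45.0% for Abcc2, 69.7% for Abca3 and 64.7% for Abca17. The annotated starts of Abca17 and Abca3 lie 964 bases apart and point away from each other. The promoters shown and the motifs searched were chosen after the expression values were seen. A match is a string of letters and not a shown binding site.

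Of the 48 members, 22 reached 1 FPKM in at least 1 of the 3 libraries, and 18 of these did so in all 3. Another 7 peaked between 0.1 and 1 FPKM, 17 stayed above 0 and below 0.1 FPKM, and Abcb11 and Abcg5 were listed at 0 in all 3 libraries. At least 1 FPKM was reached by 20 members in the knockdown, 21 in the maturing control and 19 in the proliferating control, which is 41.7%, 43.8% and 39.6% of the members. Over all genes in the table the shares were 39.4%, 38.7% and 38.4%.

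**Figure D1:**
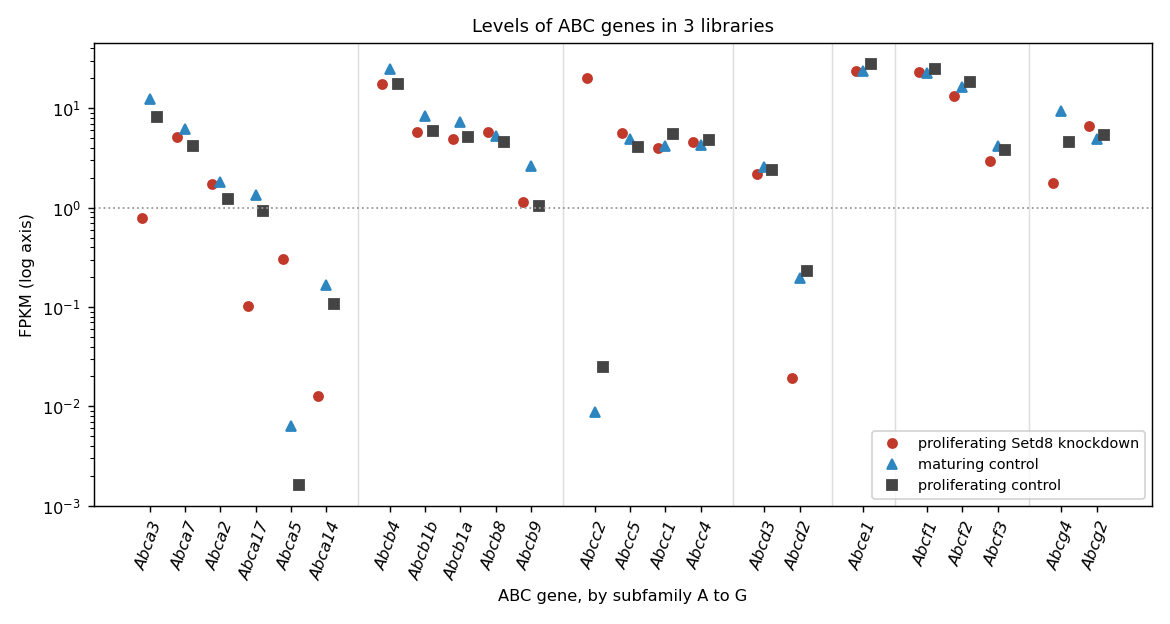
FPKM (log axis) of 20 of the 22 ABC genes that reached 1 FPKM in a library and of Abca5, Abca14 and Abcd2, which were called at lower levels, by subfamily, with 1 point per library. Abcc2 is near 20.2 FPKM in the knockdown and below 0.1 FPKM in both controls, whereas Abca3, Abca17, Abca14 and Abcd2 have their lowest point in the knockdown.

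In the proliferating control Abce1, Abcf1, Abcf2 and Abcb4 had the highest levels of the family. Abce1, which splits ribosomes after termination, stood at 24.0 FPKM in the knockdown, 23.7 FPKM in the maturing control and 28.1 FPKM in the proliferating control. Abcf1, which binds the initiation factor eIF2, stood at 23.4, 22.7 and 24.7 FPKM. Abcb4, known in liver as the phosphatidylcholine exporter of bile, stood at 17.4, 24.7 and 17.5 FPKM. The 4 members of subfamilies E and F together held 63.8 FPKM in the knockdown, 67.0 FPKM in the maturing control and 75.2 FPKM in the proliferating control. The whole family summed to 159.8, 175.04 and 157.6 FPKM in that order.

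**Figure D2:**
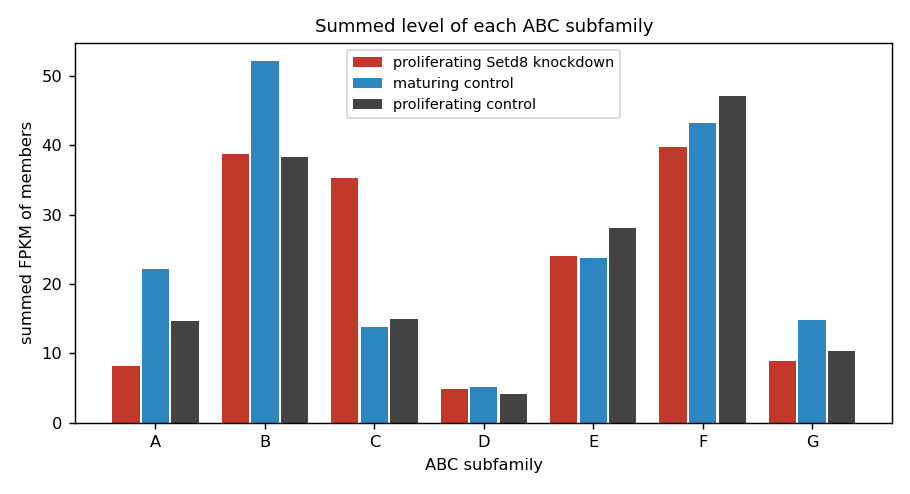
Summed FPKM of all members of each ABC subfamily in the 3 libraries, 1 bar per library. Subfamily C stands at 35.3 FPKM in the knockdown, against 13.8 FPKM in the maturing control and 14.9 FPKM in the proliferating control, and subfamily A is lowest in the knockdown at 8.12 FPKM.

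The first comparison set the proliferating Setd8 knockdown against the proliferating control and asked what a lower Setd8 level changed. Of the 29 members that the authors tested, 6 (20.7%) were called in the authors' deposited table, 2 higher and 4 lower. Over the 11665 genes tested, 9.05% were called, 5.81% higher and 3.24% lower. The 2 called higher were Abcc2 and Abca5, and the 4 called lower were Abca3, Abca17, Abca14 and Abcd2. Only Abcc2 and Abca3 among them reached 1 FPKM in a library of this comparison, and the other 4 were called at levels below that. Of the 22 members at 1 FPKM or more in any of the 3 libraries, 3 were called, with Abca17 included through the maturing control. The share called among all genes at that level was not counted. The 20.7% therefore does not show more calls in the family than among genes of similar level. The 19 members that were not tested had no value above 0.0622 FPKM in any library.

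Abcc2 encodes the canalicular exporter MRP2, which in liver moves bilirubin conjugates and glutathione conjugates into bile (chromosome 19, 43856797 to 43912708, mm9). Its level was 20.2 FPKM in the knockdown, 0.00874 FPKM in the maturing control and 0.0247 FPKM in the proliferating control. The knockdown library alone held more than 1 FPKM, and there Abcc2 ranked 3 among the members, against 31 in the maturing control and 28 in the proliferating control. It rose to 819 times its level in the proliferating control, a ratio that rests on a control value close to 0. The authors' deposited table gave a log2 ratio of 9.68 with a standard error of 0.55 in the authors' model, and its q was listed as 0. On the scale of log2(FPKM + 1) the ratio was 4.37, and it was the 14th highest of the 11665 genes tested. Abcc2 made up 12.6% of the family's summed FPKM in the knockdown, 0.00499% in the maturing control and 0.0157% in the proliferating control. Without it, the family summed to 139.6, 175.03 and 157.6 FPKM in that order. The mast cell and basophil markers given above were also higher in the knockdown, with 8 of 10 called higher. Of the megakaryocyte markers, 4 of the 5 tested were called higher, and of the 10 erythroid markers 3 were called lower. Over all genes tested, 5.81% were called higher and 3.24% lower. The 3 hepatocyte markers were listed at 0 in the knockdown. The part of any of these marker lists in the Abcc2 result was not tested.

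Abca5, which resides in endosomes and lysosomes (chromosome 11, 110130682 to 110199030), rose far less in level. It stood at 0.305 FPKM in the knockdown, 0.00629 FPKM in the maturing control and 0.00160 FPKM in the proliferating control. The deposited log2 ratio of 7.57 (q 6.33e-07 in the authors' deposited table, standard error 1.33) rests on a control value close to 0, and the log2 ratio of FPKM + 1 was 0.38.

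Abca3 moves phospholipid into the lamellar bodies of lung cells, where surfactant is stored (chromosome 17, 24488990 to 24551458). It fell to 0.788 FPKM in the knockdown, against 8.22 FPKM in the proliferating control, and stood at 12.5 FPKM in the maturing control. The knockdown level was 9.59% of that in the proliferating control. The authors' deposited table gave a log2 ratio of -3.38 (standard error 0.55; q 6.1e-08). Abca3 ranked 21 among the members in the knockdown and 5 in each control library. An uncharacterised gene, D330041H03Rik, has the same locus in the deposited table, and strand was not given, so fragments of the pair could not be separated here. That gene stood at 1.46 FPKM in the knockdown, 1.81 FPKM in the maturing control and 1.28 FPKM in the proliferating control.

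Abca17, a rodent relative of Abca3 with a role in lipid handling (chromosome 17, 24401223 to 24484197), lies next to it, with 4793 bases between the deposited loci. It fell to 0.103 FPKM in the knockdown, against 0.915 FPKM in the proliferating control, and stood at 1.35 FPKM in the maturing control. The authors' deposited table gave a log2 ratio of -3.15 (standard error 0.55; q 6.13e-07). In each of the 3 libraries Abca17 was the lower of the pair.

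Abca14, a rodent gene of the same subfamily known from testis, fell to 0.0128 FPKM in the knockdown, against 0.106 FPKM in the proliferating control, and stood at 0.166 FPKM in the maturing control (q 0.000266 for the knockdown in the authors' deposited table). Its cluster neighbours Abca15 and Abca16 were below 0.025 FPKM in every library and were not tested. Abcd2, a peroxisomal carrier of very long chain fatty acids, fell to 0.0194 FPKM in the knockdown, against 0.229 FPKM in the proliferating control, and stood at 0.198 FPKM in the maturing control (q 5.77e-07 for the knockdown in the authors' deposited table). The 4 members called lower thus stood at between 8.49% and 12.1% of the proliferating control level.

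**Figure D3:**
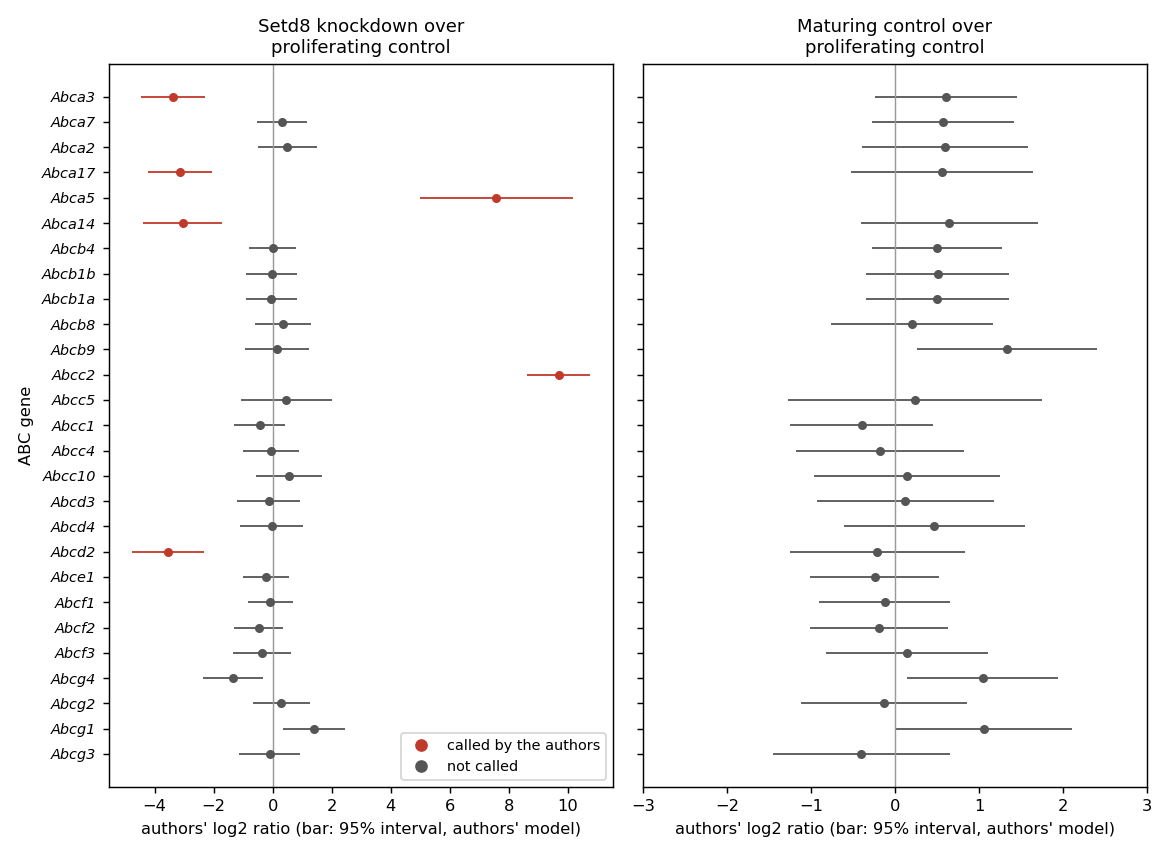
The authors' log2 ratio of 27 of the 29 tested members, with bars for the 95% interval in the authors' model and calls in red, for the Setd8 knockdown (left) and the maturing control (right) over the proliferating control. Red points at the left are Abcc2 and Abca5 far above 0 and Abca3, Abca17, Abca14 and Abcd2 near -3, and no point at the right is red; Abca5 and Abcc2 were not tested there.

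Genes around Abcc2 and Abca3 were set beside them, a choice made after their values were seen. Within 250 kb of Abcc2, 7 genes reached 1 FPKM in some library. Of these, the authors' deposited table called Gm10768 higher and did not call the other 6. Gm10768, a long non-coding RNA in RefSeq, starts 584 bases past the Abcc2 locus and stood at 18.4 FPKM in the knockdown, 0.00912 FPKM in the maturing control and 0.0140 FPKM in the proliferating control. The other 6 had log2 ratios of FPKM + 1 between -0.34 and 0.75. Without strand, transcripts that run on from Abcc2 cannot be told apart from a separate Gm10768 RNA. Within 250 kb of Abca3, 19 genes reached 1 FPKM in some library. Abca17 was called lower, and the other 18 were not called, with ratios between -0.65 and 0.70. Among the 18, Mir5134 was listed at 0 in the knockdown and the proliferating control, and reached 1 FPKM only in the maturing control. Over all genes tested in the knockdown comparison, 9.05% were called.

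**Figure D4:**
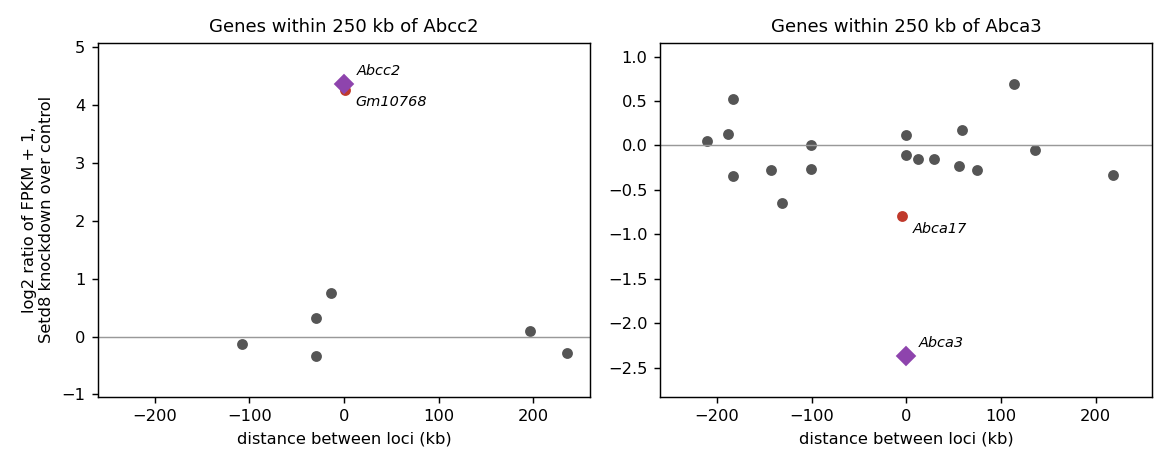
Log2 ratio of FPKM + 1, Setd8 knockdown over proliferating control, of genes at 1 FPKM or more in a library within 250 kb of Abcc2 (left) and Abca3 (right), by distance between the loci in kb. Gm10768 sits beside Abcc2 above 4 and Abca17 is the called neighbour of Abca3 (red), and the remaining genes lie between -0.65 and 0.75.

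The other 19 members at 1 FPKM or more were not called in the knockdown. The lowest of their log2 ratios of FPKM + 1 was -1.0002, for Abcg4. Over all 22 members at this level the median was -0.04, and 8 had a higher and 14 a lower value, a higher share of 36.4%. Over all 9611 genes at this level the median was -0.05, and 44.3% had a higher value. Members and all genes were included by their highest value over the 3 libraries. Abcc2, counted as higher, was included through the knockdown alone. Abca17, counted as lower, was included through the maturing control, which is outside this comparison. A size of 1 or more on that scale was reached by 3 of the 22 members, 1 higher (Abcc2) and 2 lower (Abca3 and Abcg4), against 6.98% of all genes at this level, 4.38% higher and 2.6% lower. The standard error in the authors' model was between 0.39 and 0.79 on the log2 scale for tested members at 1 FPKM or more. With errors of that size, a missed call does not show that a level was unchanged.

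Exporters of drugs and anions other than Abcc2 were not called in the knockdown. Abcc1, the glutathione conjugate and leukotriene exporter MRP1, stood at 4.03 FPKM in the knockdown, against 5.49 FPKM in the proliferating control. Abcc4, which exports cyclic nucleotides and prostaglandins, stood at 4.60 FPKM against 4.797 FPKM, with a 95% interval of the log2 ratio in the authors' model from -1.0002 to 0.88. Abcc5, another exporter of nucleotides and, in Caenorhabditis elegans, of haem, stood at 5.67 FPKM in the knockdown, against 4.12 FPKM in the proliferating control. Abcg2, the urate and porphyrin exporter known for marking stem cells by dye export, stood at 6.59 FPKM in the knockdown, against 5.39 FPKM in the proliferating control. Abcc10 peaked below 1 FPKM, at 0.749 FPKM in the knockdown, against 0.510 FPKM in the proliferating control.

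The P-glycoprotein genes Abcb1a and Abcb1b, which pump out many drugs, lie in a row with Abcb4 on chromosome 5. Abcb1a stood at 4.93 FPKM in the knockdown, 7.21 FPKM in the maturing control and 5.09 FPKM in the proliferating control, and Abcb1b at 5.76, 8.44 and 5.93 FPKM in that order. With Abcb4, the deposited log2 ratios were -0.05, -0.04 and -0.01 for the knockdown and 0.50, 0.51 and 0.50 for maturation. None was called. The 3 genes are related copies, so the split of fragments among them is uncertain. Their sum was 28.1 FPKM in the knockdown, 40.3 FPKM in the maturing control and 28.5 FPKM in the proliferating control.

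Members of mitochondria, lysosomes and peroxisomes other than Abca5 and Abcd2 were not called in the knockdown. Abcb8, of the mitochondrial inner membrane, stood at 5.78 FPKM in the knockdown, 5.25 FPKM in the maturing control and 4.57 FPKM in the proliferating control. Abcd3, a peroxisomal carrier of fatty acyl chains, stood at 2.16 FPKM in the knockdown, 2.59 FPKM in the maturing control and 2.38 FPKM in the proliferating control, with a deposited log2 ratio of -0.14 for the knockdown. Abcd4, which works in the export of cobalamin from lysosomes, peaked at 0.983 FPKM in the maturing control, with 0.694 FPKM in the knockdown, against 0.712 FPKM in the proliferating control. Abca2, a lipid transporter of lysosomes, stood at 1.71 FPKM in the knockdown, 1.83 FPKM in the maturing control and 1.21 FPKM in the proliferating control.

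Among the cholesterol exporters, Abcg4 had the widest spread over the libraries. Abcg4, which passes cholesterol to high-density lipoprotein, stood at 1.79 FPKM in the knockdown, 9.43 FPKM in the maturing control and 4.58 FPKM in the proliferating control. Against the proliferating control the authors' deposited table gave it a log2 ratio of -1.36 (q 0.105) for the knockdown and 1.04 (q 0.219) for maturation, and called neither. Set directly against the maturing control, the knockdown was lower by a deposited log2 ratio of -2.40 with a q of 4.93e-05. That comparison differs in both hairpin and medium. The deposited table ends at 65535 rows and gives it for 19067 of the 23234 genes. It called 7 of 29 tested members, the 6 given above and Abcg4, against 11.6% of its 9241 tested genes. Abcg1, the closest relative of Abcg4, stood at 0.295 FPKM in the knockdown, 0.235 FPKM in the maturing control and 0.112 FPKM in the proliferating control (q 0.109 for the knockdown in the authors' deposited table). Abca1, the main cholesterol exporter of many tissues, was at 0.0289, 0.0622 and 0.0243 FPKM in that order and was not tested. Abca7, a phospholipid exporter related to it, stood at 5.15, 6.16 and 4.14 FPKM.

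The ribosome members had lower values in the knockdown without a call. Beside Abce1 and Abcf1 given above, Abcf2 stood at 13.4 FPKM in the knockdown, 16.3 FPKM in the maturing control and 18.6 FPKM in the proliferating control. Abcf3, a relative of the yeast activator of the amino acid sensing kinase Gcn2, stood at 2.97, 4.22 and 3.82 FPKM. All 4 had a lower value in the knockdown than in the proliferating control, with deposited log2 ratios from -0.48 to -0.08, although Abcf1 turned to 0.01 when the libraries were centred on abundant genes. A lower value was also held by 55.6% of all genes at 1 FPKM or more.

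The second comparison set the maturing control against the proliferating control and asked what 6 h in maturation medium changed. No member was called among the 27 that the authors tested, against 1.75% of the 11298 genes tested. An unadjusted p below 0.05 was given to 3 of the 27 (11.1%), all with a higher value, against 4.90% of all genes tested. Abcb9, a peptide transporter of lysosomes, stood at 2.62 FPKM in the maturing control and 1.04 FPKM in the proliferating control (p 0.0149, q 0.158 in the authors' deposited table), and at 1.15 FPKM in the knockdown. The others were Abcg4 (p 0.0229) and Abcg1 (p 0.0466, q 0.366), whose levels are given above. The 22 members at 1 FPKM or more had log2 ratios of FPKM + 1 from -0.33 for Abcc1 to 0.90 for Abcg4, with a median of 0.18 and a higher value in 14 of them (63.6%). Over all 9611 genes at this level the median was 0.01, and 52.6% had a higher value. The level was judged over all 3 libraries, for members and for all genes. Abca17 was thus included through the maturing control alone, and it counts as higher here and in subfamily A below. Abcc2 was included through the knockdown alone. It counts as lower here, at 0.00874 FPKM against 0.0247 FPKM, and was not tested in this comparison. None of the 22 reached a size of 1, whereas 1.66% of all genes at this level reached it. By subfamily, members at 1 FPKM or more with a higher value were 4 of 4 in A, 5 of 6 B, 1 of 4 C, 2 of 2 D, 0 of 1 E, 1 of 3 F and 1 of 2 G. Both comparisons share the proliferating control library, so a value that is off in that library enters both.

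The remaining members were scarce in all libraries. Abcg3, a rodent relative of Abcg2, peaked at 0.250 FPKM in the proliferating control, with 0.233 FPKM in the knockdown. In subfamily C the channel regulators Abcc8 and Abcc9, together with Abcc3, Abcc6 and Abcc12, did not exceed 0.0129 FPKM. The other A members (Abca4, Abca6, Abca8a, Abca8b, Abca9, Abca12, Abca13, Abca15 and Abca16) did not exceed 0.0249 FPKM, Abcb5 did not exceed 0.00587 FPKM and Abcg8 did not exceed 0.00633 FPKM.

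Genes that work with ABC proteins were counted in 8 lists. The lists cover ribosome recycling and translation control, sterol export under the liver X receptors (LXR), peroxisomes, iron-sulfur clusters, peptide loading, glutathione and Nrf2, potassium channel partners and cobalamin. In the knockdown the authors' deposited table called 5 of the 110 tested genes (4.55%, against 9.05% of all tested), 2 higher and 3 lower, and for maturation 0 of 109. In the sterol list of 18 genes, Rxra, the partner receptor of LXR, rose to 6.98 FPKM in the knockdown, against 0.309 FPKM in the proliferating control, and Soat1, which esterifies cholesterol, fell to 0.980 FPKM, against 3.71 FPKM. In the list of 16 Nrf2 and glutathione genes, the glutathione transferase Gstp1 rose to 85.7 FPKM in the knockdown, against 28.3 FPKM in the proliferating control. The quinone reductase Nqo1 fell to 3.005 FPKM in the knockdown, against 12.2 FPKM in the proliferating control, and the glutathione transferase Gsta4 fell to 5.81 FPKM, against 40.6 FPKM. No gene was called among the 15 tested of ribosome recycling and translation control, 19 of peroxisomes, 24 of iron-sulfur clusters, 14 of peptide loading and 10 of cobalamin handling, nor was the 1 tested of the potassium channel partners.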

How the data were processed

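Total RNA was purified and sequenced after kit-based library preparation, per the labels' protocols. The submitters' processing notes name FastQC 0.10.1, Cufflinks 2.0.2, Cuffdiff and the mm9 build. The aligner, the gene annotation and any pooling are not stated there. Per the file headers, the deposited table has Cuffdiff's layout. The authors deposited FPKM per library in it, and for each pair of libraries the log2 ratio, the statistic, the p-value and the q-value. Names in the table were matched to the labels. The knockdown library was matched by its target and the number in its title.

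Calls are those of the authors' deposited table (q of at most 0.05). With 1 library per group no test was run here. The standard error is the deposited log2 ratio over the deposited statistic. Sizes are log2 ratios with a pseudocount of 1, which understates the change of low genes, over genes at 1 FPKM or more in 1 of the 3 libraries. FPKM gives no absolute depth, so no counting interval was computed. Named are members at 1 FPKM or more, called members, the highest remaining member of a subfamily, and called genes of 8 lists (124 of 125 entries matched). Abcg3, the scarcer members, genes near Abcc2 and Abca3, and Kcnq1 fall outside that rule and were named after their values were seen. The values of 2 members that were counted are not reported here. The members and lists were chosen with earlier results of these data known. The p-value adjustment was tried on simulated log2 ratios with a common standard error for all genes, whereas the deposited errors differ between genes. The simulation did not cover the member counts or medians and does not test the deposited calls. Promoters came from RefSeq. Software was Python 3.11.15 with pandas 2.3.3, scipy 1.17.1, numpy 2.4.6 and matplotlib 3.10.9.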

Additional observations from a re-analysis of the deposited data

How the results depend on the processing

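The knockdown count of 6 called members held the same 6 genes with q under 0.01 and with p-values adjusted again within the comparison. It was 2 (Abcc2 and Abca3) with a size of 1 or more beside the call, with 1 FPKM or more in a library of the comparison, and with 5 FPKM or more. The maturation count was 0 under these 5 alternatives. The members' median in the knockdown lay near 0 and changed sign with the mean (0.034, all genes 0.0031) and with centring on abundant genes (0.033, all genes 0.029). Under the other 7 alternatives it lay between -0.05 and -0.000215. The maturation median was 0.00446 with no filter on low values, since 26 of 48 members were below 1 FPKM, and between 0.10 and 0.22 under the other 8. Of 23 named members, 5 changed sign in the knockdown under some pseudocount or scaling, with sizes of at most 0.0744 before the change and none called, and 0 did so in maturation. With no replicate spread to judge by, a median was taken as moved past a shift of 0.1, a limit chosen after the medians were seen. No paired analysis was possible because each group had 1 library. No replicate could be left out for the same reason. The calls of Abca5, Abca14, Abca17 and Abcd2 rest on levels below 1 FPKM, where the fragments behind a value are unknown.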

Other observations

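Subfamily A held both called directions: of its 6 tested members, 3 were called lower and 1 higher in the knockdown, against 9.05% called of all genes tested. Subfamilies B, E, F and G held 0 calls among 6, 1, 3 and 4 tested members, and the difference between subfamilies was not tested. The 3 called lower are on 2 chromosomes, Abca3 and Abca17 side by side on chromosome 17 and Abca14 on chromosome 7. In the potassium channel list, Kcnq1 stood at 3.32 FPKM in the knockdown, against 0.00399 FPKM in the proliferating control and was listed at 0 in the maturing control. It was not called, with a q of 0.369 in the authors' deposited table at a log2 ratio of 9.70.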
